A study of Homo sapiens with 8 samples.

Results

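The genes described here are 40 genes of the integrated stress response and the unfolded protein response, chosen by symbol from the 25411 genes listed for each library. They form 2 arms of 20 genes. The first holds the transcription factor ATF4 with its known target genes and feedback regulators, and the second holds the sensors, chaperones and folding enzymes of the endoplasmic reticulum (ER). RNA-Seq was performed on BEAS-2B, an immortalised human bronchial epithelial line, with 2 libraries in each of 4 groups. UT cells received no nickel, and Ni-E cells were kept in 100 µM NiCl2 for 6 weeks. Ni-W cells received the same exposure and were then grown without nickel for more than 6 months from a single colony, so Ni-W is 1 clone. HCl3 cells carry the same exposure and single-cell cloning in their labels, which do not give their time without nickel or their relation to the Ni-W clone.

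The integrated stress response begins with kinases that phosphorylate the initiation factor eIF2alpha when amino acids run short, when unfolded proteins build up in the ER, or under heme loss or viral RNA. Bulk translation then falls while the ATF4 message is translated more, and ATF4 switches on genes for amino acid synthesis, amino acid import and tRNA charging. The unfolded protein response shares one of these kinases, PERK (EIF2AK3), and adds the sensors IRE1 (ERN1) and ATF6. These last sensors act through spliced XBP1 and cleaved ATF6 on the genes of ER chaperones, disulfide isomerases and ER-associated degradation.

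Different promoter elements are known for the arms, and a few of those found are printed here, from genes described below and 1 gene for the third element. RefSeq promoters (GRCh38.p14, 250 bases before to 50 after each gene start) were matched for 37 of the 40 genes, all but PSPH, SHMT2 and PDIA3. Each gene was matched to a single promoter, whose start may differ from that of the transcripts counted, as for ATF3 with its several RefSeq transcripts. The CEBP-ATF response element, which ATF4 binds, was searched as TGATGNAA on both strands. It was found in 6 of 18 promoters of the ATF4 arm (ATF3, CHAC1, ASNS, SLC3A2, SLC7A1 and AARS), in 1 of 19 of the ER arm (HERPUD1), and in 3.62% of all 35116 promoters. The ER stress response element was searched as CCAAT and CCACG with 9 bases between them, on both strands. It was found in 6 of 19 promoters of the ER arm (HSPA5, HSP90B1, XBP1, CALR, CANX and CRELD2), in 0 of 18 of the ATF4 arm, and in 0.0769% of all promoters. The unfolded protein response element, TGACGTGG, was found only in HYOU1 among these genes and in 0.729% of all promoters. A match describes letters and does not show that a factor binds there. Of the 6 genes of the ATF4 arm with the CEBP-ATF element, only CHAC1 and ASNS passed the thresholds below against UT. No match was found in ATF4, TRIB3, PSAT1, PHGDH, MTHFD2, SESN2 or GARS, which also passed them. Below, 5′ to 3′ along the gene, capitals mark the element on either strand, with 20 bases on each side.
CHAC1, chr15:40953242-40953289, plus strand: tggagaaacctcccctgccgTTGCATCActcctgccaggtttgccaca
ASNS, chr7:97872449-97872496, minus strand: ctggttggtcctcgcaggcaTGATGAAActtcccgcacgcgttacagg
ATF3, chr1:212565196-212565243, plus strand: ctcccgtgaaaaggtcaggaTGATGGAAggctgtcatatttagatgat
AARS, chr16:70289666-70289713, minus strand: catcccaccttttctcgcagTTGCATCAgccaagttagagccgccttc
HSPA5, chr9:125241371-125241429, minus strand: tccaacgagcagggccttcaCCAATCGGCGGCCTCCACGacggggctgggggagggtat
XBP1, chr22:28800583-28800641, minus strand: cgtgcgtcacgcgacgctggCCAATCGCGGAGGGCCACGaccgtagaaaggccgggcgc
HYOU1, chr11:119057366-119057413, minus strand: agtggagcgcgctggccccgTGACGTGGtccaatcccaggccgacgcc

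The libraries held between 26383920 and 45692298 counted reads. Every one of the 40 genes was tested in all comparisons, and the lowest count of any of them in any library was 135. Of the markers of the labelled cell type, KRT7, KRT8 and KRT18 stood at 144 to 481 RPKM (reads per gene, corrected for gene length and library size), whereas EPCAM reached at most 1.79 and CDH1, KRT5 and KRT19 at most 0.78. Summed over 7 epithelial markers, the level was 579 to 794 RPKM in UT and Ni-E and 935 to 996 in Ni-W and HCl3, and the part of this difference in the results below was not tested. CD3E and DCN were at 0 in every library, and PTPRC and 3 endothelial markers did not exceed 0.04, whereas CD14 reached 4.15. The fibroblast marker COL1A1 was at 178 to 454, with COL1A2 and ACTA2 at most 2.79. Both Ni-E libraries carry one experiment number and the HCl3 libraries 2 others, so group and experiment cannot be told apart. UT and Ni-E cells are not described as cloned or grown on for the added months. In Ni-W, nickel removal therefore cannot be told apart from cloning and longer culture. In HCl3, whose time without nickel is not given, nickel removal cannot be told apart from cloning or from any longer culture. As these are bulk samples, a change in RNA per cell and a change in the share of cells that express a gene cannot be told apart either. Strand use in counting was not stated, and DDIT3, SHMT2, DNAJB9, EIF2AK3, PDIA3 and PDIA6 overlap a gene on the opposite strand. Reads that MTHFD2, SLC7A5 or PDIA3 share with a listed copy may have been removed.

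To ask how the stress genes stood during exposure, Ni-E was compared with UT. All 6 biosynthetic and one-carbon enzymes of the ATF4 arm rose, with 4 of its 8 transcription factors and feedback regulators, 1 of 3 tRNA synthetases and 0 of 3 transporters, whereas no gene of the ER arm was called. Of the 20 genes of the ATF4 arm, 11 rose and 0 fell (adjusted P value under 0.05 by DESeq2 and at least 1.5-fold), beside 3.84% of all 14140 genes tested that rose and 2.10% that fell. The median log2 fold change was 0.63 in this arm, -0.01 in the ER arm and 0.00 over all genes tested.

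ATF4 itself (chromosome 22, 39916569 to 39918691, hg19) was listed at 107 and 98.2 RPKM in the UT libraries, 177 and 188 in those of Ni-E, 62.9 and 58.7 in those of Ni-W, and 52.5 and 57.4 in those of HCl3. Both Ni-E libraries lay above UT and all 4 libraries after nickel removal lay below it, with no overlap. The log2 fold change in Ni-E against UT was 0.78 ± 0.11 (SE; adjusted P value 1.46e-10), or 1.71-fold. These are levels of the message, and the translation through which ATF4 is known to be controlled was not measured.

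The steepest increases among regulators were in CHAC1, an enzyme that breaks down glutathione, and TRIB3, a pseudokinase that restrains ATF4. CHAC1 was at 8.36 and 7.24 RPKM in the UT libraries, 24.2 and 23.1 in those of Ni-E, 3.51 and 3.02 in those of Ni-W, and 3.32 and 3.82 in those of HCl3. TRIB3 was at 27.7 and 23.5 RPKM in the UT libraries, 74.7 and 66.0 in those of Ni-E, 12.8 and 12.7 in those of Ni-W, and 15.8 and 16.4 in those of HCl3. For both genes the Ni-E libraries lay far above UT, and each library after nickel removal was below both UT libraries. CHAC1 rose by 1.54 ± 0.15 on the log2 scale (adjusted P value 2.66e-20) and TRIB3 by 1.40 ± 0.13 (2.68e-24). SESN2, a leucine sensor that holds back mTORC1, was at 8.05 and 7.11 RPKM in the UT libraries, 15.3 and 15.5 in those of Ni-E, 6.31 and 5.68 in those of Ni-W, and 6.35 and 6.24 in those of HCl3. It rose by 0.97 ± 0.13 in Ni-E (adjusted P value 1.36e-10).

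The other 4 regulators were not called. DDIT3, which encodes the pro-apoptotic factor CHOP, was at 16.7 and 15.2 RPKM in the UT libraries, 13.1 and 14.7 in those of Ni-E, 12.2 and 10.5 in those of Ni-W, and 10.2 and 11.6 in those of HCl3. UT was the highest of the groups, in contrast to ATF4. The Ni-E difference was -0.22 ± 0.18 (adjusted P value 0.494), with a 95% interval from -0.57 to 0.13 that leaves out an increase of the called size. ATF3, another ATF4 target, was at 13.7 and 14.4 RPKM in UT and 17.1 and 16.98 in Ni-E, a difference of 0.23 ± 0.14 (adjusted P value 0.317). PPP1R15A, the phosphatase subunit that reverses eIF2alpha phosphorylation, differed by 0.14 ± 0.13 (0.575). CEBPB, a partner of ATF4 on CEBP-ATF elements, differed by 0.48 ± 0.13 (0.00336), which passed the P value but not the fold threshold.

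All 6 enzymes of serine, asparagine and one-carbon metabolism rose in Ni-E. Asparagine synthetase, ASNS, was at 38.9 and 41.3 RPKM in the UT libraries, 102 and 136 in those of Ni-E, 16.8 and 17.8 in those of Ni-W, and 14.7 and 14.5 in those of HCl3. It rose by 1.52 ± 0.13 on the log2 scale (adjusted P value 3.11e-26). The serine pathway runs from PHGDH through PSAT1 to PSPH. PHGDH was at 86.8 and 77.4 RPKM in the UT libraries, 153 and 197 in those of Ni-E, 105 and 95.6 in those of Ni-W, and 77.1 and 82.9 in those of HCl3. PSAT1 was at 79.2 and 88.5 RPKM in the UT libraries, 181 and 189 in those of Ni-E, 47.6 and 53.5 in those of Ni-W, and 39.4 and 37.5 in those of HCl3. PSPH was at 15.3 and 14.1 RPKM in the UT libraries, 23.2 and 25.1 in those of Ni-E, 14.6 and 13.6 in those of Ni-W, and 15.8 and 15.4 in those of HCl3. The 3 steps thus shared high levels in Ni-E, but after nickel removal only PSAT1 lay below UT in all 4 libraries. Their Ni-E log2 fold changes were 1.04 ± 0.13 for PHGDH (adjusted P value 8.53e-13), 1.08 ± 0.11 for PSAT1 (1.59e-20) and 0.66 ± 0.13 for PSPH (2.31e-05).

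The mitochondrial one-carbon enzymes followed. MTHFD2 was at 106 and 113 RPKM in the UT libraries, 177 and 181 in those of Ni-E, 61.0 and 59.4 in those of Ni-W, and 67.4 and 64.4 in those of HCl3. SHMT2, which splits serine, was at 143 and 138 RPKM in the UT libraries, 209 and 234 in those of Ni-E, 99.9 and 94.1 in those of Ni-W, and 97.4 and 101 in those of HCl3. Both genes were highest in the Ni-E libraries and lowest in the 4 libraries after nickel removal, with no overlap between these and UT. MTHFD2 rose by 0.65 ± 0.10 (adjusted P value 3.90e-08) and SHMT2 by 0.60 ± 0.11 (1.19e-06) in Ni-E. SHMT2 stood close to the 1.5-fold threshold and missed it without UT replicate 2 (0.57), without Ni-E replicate 2 (0.53) and once trends with GC content and gene length were removed (0.44).

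Of the genes of amino acid import and tRNA charging, 1 of 6 was called. GARS, the glycyl-tRNA synthetase, was at 61.9 and 65.6 RPKM in the UT libraries, 113 and 109 in those of Ni-E, 49.6 and 52.2 in those of Ni-W, and 54.6 and 55.1 in those of HCl3. It rose by 0.75 ± 0.11 in Ni-E (adjusted P value 3.40e-10). The alanyl and tryptophanyl enzymes AARS (0.35 ± 0.10, adjusted P value 0.00959) and WARS (0.42 ± 0.12, 0.00851) passed the P value but not the fold threshold. Of the transporters, the same was true of SLC3A2 (0.49 ± 0.10, 9.37e-05), the heavy chain that carries several light chains to the membrane. SLC7A5, its light chain for large neutral amino acids, differed by 0.17 ± 0.10 (0.301) and the arginine and lysine transporter SLC7A1 by 0.20 ± 0.10 (0.228).

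**Figure D1:**
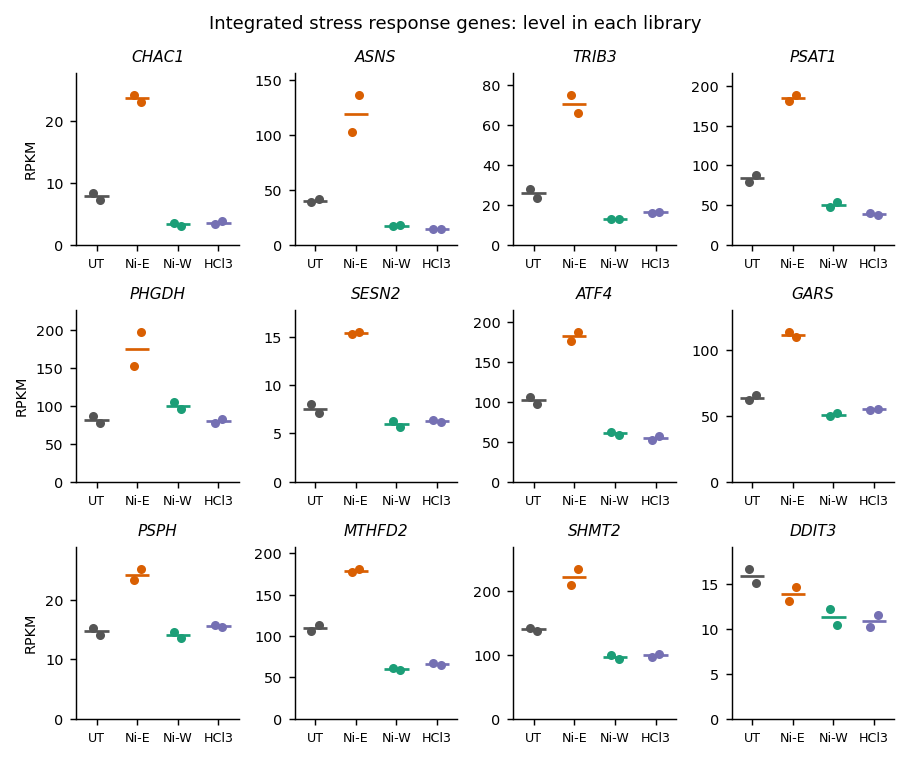
RPKM (vertical axis, from 0) in the 2 libraries of each of the 4 groups (horizontal axis) for the 11 genes that rose in Ni-E and for DDIT3. Points are libraries and bars are group means. Ni-E is the highest group in every panel but that of DDIT3, where the UT libraries, at 16.7 and 15.2, lie above the other 6.

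In the ER arm, 0 of 20 genes were called in Ni-E against UT by DESeq2, near the 3.84% and 2.10% of all genes. At an unadjusted P value under 0.05 there were 5, of which 0 reached 1.5-fold, and edgeR called 0, beside 1083 of all genes. The share of all genes at an unadjusted P value under 0.05 was not counted, here or for the later comparisons. HSPA5, the chaperone BiP that holds the ER sensors inactive, was at 191 and 197 RPKM in the UT libraries, 201 and 198 in those of Ni-E, 230 and 235 in those of Ni-W, and 210 and 216 in those of HCl3. UT and Ni-E lay close together, with a difference of -0.02 ± 0.10 (adjusted P value 0.955) and a 95% interval from -0.21 to 0.18. XBP1, the message that IRE1 splices, was at 62.3 and 65.6 RPKM in the UT libraries, 90.3 and 84.6 in those of Ni-E, 55.7 and 54.0 in those of Ni-W, and 53.8 and 56.7 in those of HCl3. Its Ni-E libraries stood above all others, but the difference from UT, 0.39 ± 0.11 (adjusted P value 0.0073), did not reach 1.5-fold. Gene counts do not separate the spliced from the unspliced form.

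The remaining ER genes lay between -0.42 and 0.33 on the log2 scale in Ni-E, as shown for all 40 genes in the plot of log2 fold changes. At the lower end was DNAJC3, an inhibitor and co-chaperone induced by ER stress, at -0.42 ± 0.13 (adjusted P value 0.0135). HSP90B1, the ER form of HSP90, was at -0.29 ± 0.11 (0.0493). Above 0 were the lectin chaperone CALR at 0.25 ± 0.10 (0.0797) and SDF2L1, part of the BiP chaperone cycle, at 0.33 ± 0.15 (0.13). The 6 genes whose promoters held the ER stress element ran from -0.29 for HSP90B1 to 0.39 for XBP1, and none was called. The part of the element in these values was not tested.

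**Figure D2:**
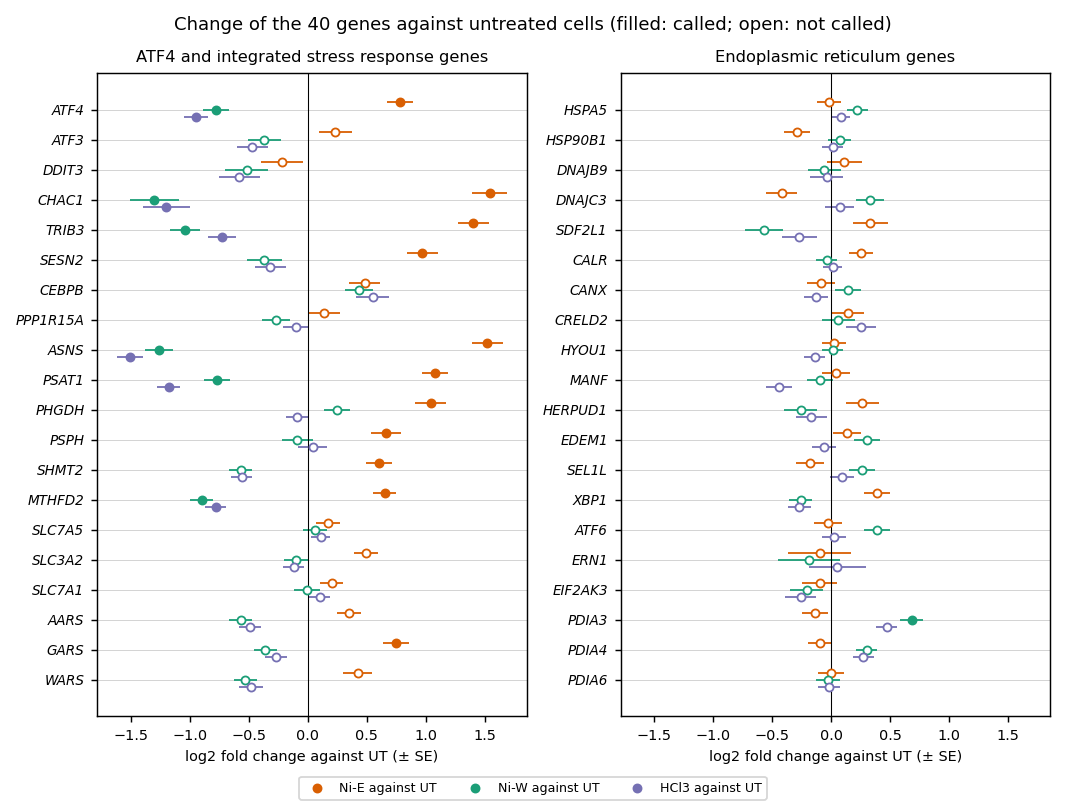
Log2 fold change against UT (horizontal axis, DESeq2, bars ± SE) of the 20 genes of the ATF4 arm (left) and the 20 ER genes (right) in Ni-E, Ni-W and HCl3. Filled points passed both thresholds: 11 genes rose in Ni-E on the left and 6 fell in each of Ni-W and HCl3, whereas on the right PDIA3 in Ni-W is the only filled point.

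To ask how these genes stood in the clone grown without nickel, Ni-W was compared with UT. The ATF4 arm held no gene still above the untreated level by the criteria, and some of its genes lay below it. Of 20 genes, 0 rose and 6 fell, beside 11.1% of all 15477 genes tested that rose and 4.95% that fell. The log2 fold change of ATF4 was -0.78 ± 0.11 (adjusted P value 1.11e-11). The target genes CHAC1 and TRIB3 fell too, at -1.30 ± 0.21 (7.19e-09) and -1.04 ± 0.13 (1.78e-14). Of the enzymes, ASNS was at -1.26 ± 0.12 (1.09e-24), MTHFD2 at -0.90 ± 0.10 (5.32e-17) and PSAT1 at -0.77 ± 0.11 (2.18e-10). The arm's median was -0.44, beside 0.01 over all genes tested. Within 5 Mb on either side of these genes, the median log2 fold change of neighbouring genes ran from -0.39 at TRIB3 to 0.44 at CHAC1.

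Several other genes of the arm passed the P value in Ni-W without a 1.5-fold change. SHMT2 was at -0.57 ± 0.10 (adjusted P value 8.89e-08), AARS at -0.57 ± 0.10 (4.72e-07) and WARS at -0.53 ± 0.10 (4.65e-06). DDIT3 was at -0.52 ± 0.18 (0.0148), and it passed both thresholds without UT replicate 2, at -0.60 (0.0476), but missed the P value without any one of the other 3 libraries (0.129 to 0.354). CEBPB went the other way, with 22.8 and 21.3 RPKM in Ni-W against 16.1 and 15.9 in UT, a difference of 0.43 ± 0.12 (0.00244). PHGDH and PSPH, called in Ni-E, differed from UT by 0.25 ± 0.11 (0.0582) and -0.09 ± 0.13 (0.663) in Ni-W.

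In Ni-W 1 of 20 ER genes rose and 0 fell, beside 11.1% and 4.95% of all genes, and 20 genes are too few to tell these shares apart. PDIA3, a disulfide isomerase that works with calnexin and calreticulin on glycoproteins, was at 88.8 and 99.5 RPKM in the UT libraries, 86.0 and 91.7 in those of Ni-E, 153 and 156 in those of Ni-W, and 135 and 136 in those of HCl3. The libraries after nickel removal lay above all UT and Ni-E libraries. PDIA3 rose by 0.68 ± 0.10 in Ni-W (adjusted P value 8.59e-10), beside a median of 0.47 over the genes within 5 Mb of it (98 genes in the window), and was not called in HCl3, at 0.47 ± 0.09 (6.39e-06) beside a window median of 0.27. The part of the region in these values was not tested. HSPA5 differed from UT in Ni-W by 0.22 ± 0.09 (0.0515) and XBP1 by -0.26 ± 0.10 (0.0453). SDF2L1 was at -0.57 ± 0.16 (0.00194) and would count as lower without UT replicate 2 (-0.72) or Ni-W replicate 1 (-0.73).

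**Figure D3:**
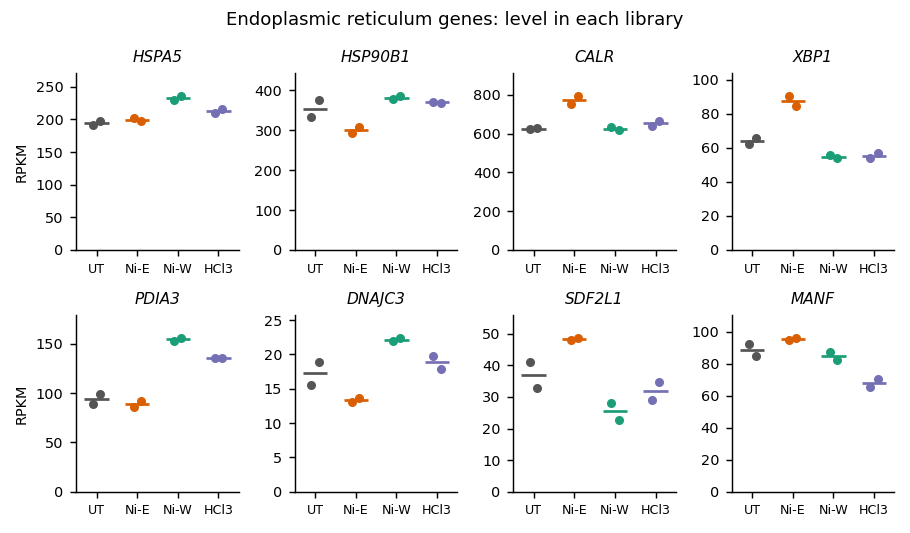
RPKM (vertical axis, from 0) in the 2 libraries of each group (horizontal axis) for 8 ER genes. Points are libraries and bars are group means. HSPA5 runs from 191 to 235 over all libraries, and XBP1, CALR, SDF2L1 and MANF are highest in Ni-E. PDIA3 is higher in the Ni-W and HCl3 libraries than in UT or Ni-E.

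HCl3 was set against the same UT libraries, so its values are not independent of those of Ni-W. In the ATF4 arm 0 genes rose and 6 fell, beside 11.4% of all 15421 genes tested that rose and 3.84% that fell. The 6 were ATF4 (log2 fold change -0.95 ± 0.10, adjusted P value 1.10e-18), CHAC1 (-1.20 ± 0.20, 2.28e-08) and TRIB3 (-0.73 ± 0.12, 2.00e-08) with the enzymes ASNS (-1.51 ± 0.11, 6.03e-42), PSAT1 (-1.18 ± 0.10, 5.99e-30) and MTHFD2 (-0.78 ± 0.09, 2.04e-15). DDIT3 stood at -0.58 ± 0.17 (0.00316), just short of the fold threshold, which it passed without UT replicate 2, at -0.66 (0.009). Without any one of the other 3 libraries it missed the P value (0.1 to 0.259). CEBPB was again above UT without a call, at 0.55 ± 0.14 (0.000327), and passed both thresholds without HCl3 replicate 1, at 0.72. Medians of neighbouring genes around the 6 genes that fell ran from -0.18 to 0.27.

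No ER gene was called in HCl3 against UT, where 6 of 20 had an unadjusted P value under 0.05, of which 0 reached 1.5-fold. By edgeR 0 were called, beside 2894 of all genes. Of all genes tested by DESeq2, 11.4% rose and 3.84% fell. HSPA5 differed by 0.08 ± 0.08 (adjusted P value 0.543; 95% interval from -0.09 to 0.24) and XBP1 by -0.27 ± 0.10 (0.024). MANF, a secreted factor that stabilises BiP complexes, was at 92.6 and 85.1 RPKM in the UT libraries, 94.6 and 96.1 in those of Ni-E, 87.4 and 82.3 in those of Ni-W, and 65.6 and 70.2 in those of HCl3. Its HCl3 libraries were the lowest of the 8, at -0.44 ± 0.11 (0.000197) against UT, beside a window median of -0.31.

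Ni-W was then compared with Ni-E, the contrast that leaves out UT. In the ATF4 arm 0 of 20 genes rose and 15 fell, beside 12.0% of all 15638 genes tested that rose and 9.04% that fell. The steepest decreases were in CHAC1 (log2 fold change -2.86 ± 0.16, adjusted P value 3.29e-71), ASNS (-2.79 ± 0.12, 3.84e-110) and TRIB3 (-2.46 ± 0.11, 1.06e-108). ATF4 was at -1.57 ± 0.09 (2.01e-63). The 15 held all 6 enzymes, the others being PSAT1 (-1.87 ± 0.09, 1.43e-84), MTHFD2 (-1.56 ± 0.09, 1.11e-70), SHMT2 (-1.19 ± 0.09, 6.29e-37), PHGDH (-0.80 ± 0.11, 3.83e-11) and PSPH (-0.77 ± 0.12, 6.13e-10). All 3 tRNA synthetases fell, GARS (-1.12 ± 0.09, 1.51e-32), WARS (-0.97 ± 0.11, 4.41e-18) and AARS (-0.94 ± 0.09, 3.22e-22). SESN2 was at -1.35 ± 0.12 (4.08e-27). ATF3 (-0.61 ± 0.13, 1.12e-05) and SLC3A2 (-0.61 ± 0.09, 6.98e-11) passed narrowly. ATF3 was not called without Ni-W replicate 1 (-0.57), nor SLC3A2 without Ni-W replicate 2 (-0.57). DDIT3 (-0.31 ± 0.18, 0.162), CEBPB (-0.07 ± 0.11, 0.686), PPP1R15A, SLC7A5 and SLC7A1 were not called.

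In the ER arm 2 of 20 genes were higher and 2 lower in this contrast, shares near the 12.0% and 9.04% of all genes. PDIA3 rose by 0.80 ± 0.08 (adjusted P value 1.76e-19) and DNAJC3 by 0.74 ± 0.10 (3.18e-13). DNAJC3 was at 15.6 and 18.9 RPKM in the UT libraries, 13.1 and 13.6 in those of Ni-E, 22.0 and 22.4 in those of Ni-W, and 19.8 and 17.9 in those of HCl3. XBP1 (-0.67 ± 0.10, 1.32e-10) and SDF2L1 (-0.92 ± 0.14, 3.48e-10) fell. SDF2L1 was at 40.97 and 32.94 RPKM in the UT libraries, 48.1 and 48.6 in those of Ni-E, 28.2 and 22.7 in those of Ni-W, and 28.9 and 34.8 in those of HCl3. The Ni-E and Ni-W libraries did not overlap for any of these 4 genes, but in the ER arm they overlapped only for ERN1 and HYOU1. Lack of overlap therefore does not set the 4 genes apart, and its share over all genes was not counted for these groups. After trends with GC content and gene length were removed, DNAJC3 (0.54) and SDF2L1 (-0.53) were no longer called. HSPA5 differed by 0.22 ± 0.08 (0.0215), under the fold threshold.

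Between the cloned populations, HCl3 and Ni-W, 0 of the 40 genes were called by DESeq2, beside 3.18% of all 14605 genes tested that were higher and 1.72% that were lower in HCl3. At an unadjusted P value under 0.05 there were 15, of which 0 reached 1.5-fold, and edgeR called 0, beside 1054 of all genes. The log2 differences lay between -0.41, for PSAT1 (± 0.09, adjusted P value 8.95e-05), and 0.32, for TRIB3 (± 0.10, 0.0117). ATF4 differed by -0.16 ± 0.09 (0.214; 95% interval from -0.33 to 0.01) and HSPA5 by -0.14 ± 0.07 (0.133). DDIT3 differed by -0.06 ± 0.16 (0.894). XBP1, at 0.00 ± 0.08 (0.987), had a 95% interval from -0.16 to 0.15.

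The order of the libraries by RPKM describes the arms without a fold threshold. Both Ni-E libraries lay above the other 6 for 18 of 20 genes of the ATF4 arm, all but DDIT3 and CEBPB, and for 6 of 20 ER genes, beside 18.7% of the 13856 genes whose counts averaged 10 or more. All 4 libraries of Ni-W and HCl3 lay below both UT libraries for 13 of 20 genes of the ATF4 arm and for 3 of 20 ER genes (HERPUD1, XBP1 and EIF2AK3), beside 22.5% of all these genes. They lay above both for 2 genes of the ATF4 arm (SLC7A5 and CEBPB) and 4 ER genes (HSPA5, PDIA3, PDIA4 and SEL1L), beside 30.3%.

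Levels were also summed by role. The 6 amino acid and one-carbon enzymes together stood at 469 and 472 RPKM in the UT libraries, 846 and 962 in those of Ni-E, 345 and 334 in those of Ni-W, and 312 and 316 in those of HCl3. The 3 tRNA synthetases were at 160 and 166 RPKM in UT, 242 and 250 in Ni-E, and between 121 and 130 after nickel removal. The 3 transporters were at 254 and 247 RPKM in UT and at 323 in both Ni-E libraries. Against these, the 10 chaperones and related factors spanned only 1697 to 1865 RPKM over all 8 libraries. The 3 disulfide isomerases were at 326 to 343 RPKM in UT and Ni-E and at 405 to 424 in Ni-W and HCl3. A sum is led by its most abundant genes, such as CALR among the chaperones.

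**Figure D4:**
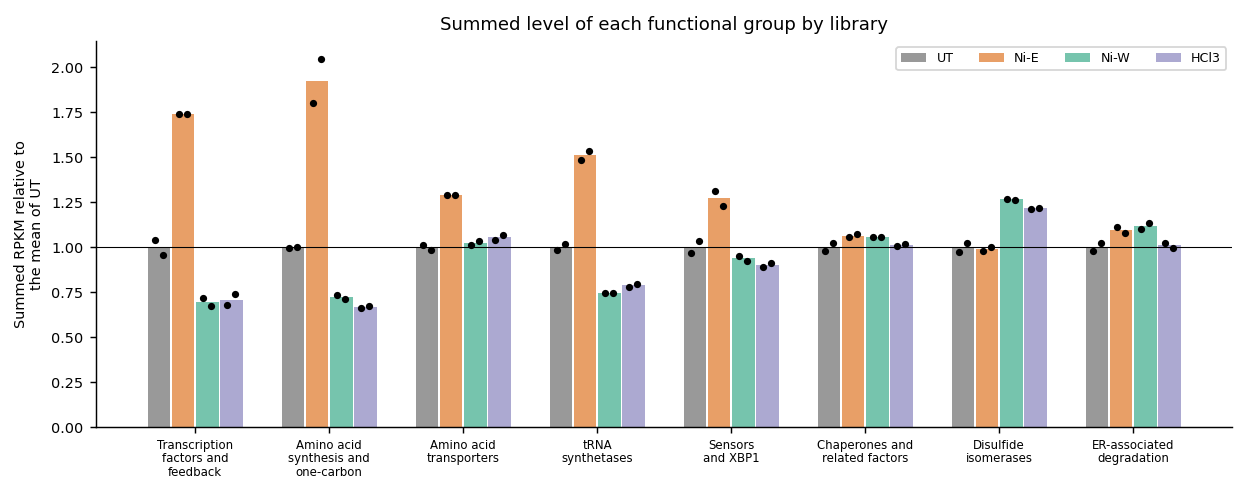
Summed RPKM of the genes of each role, divided by the mean of the 2 UT libraries (vertical axis, from 0), for the 8 roles (horizontal axis). Bars are group means and points are libraries. The regulators, enzymes and tRNA synthetases lie above the UT line in Ni-E and under it in Ni-W and HCl3, whereas the chaperones stay near it in every group.

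Other genes of the same pathways, on lists that the 40 genes do not enter, were counted in the same way. Of 37 further integrated stress response genes tested, 14 rose and 0 fell in Ni-E against UT, beside 3.84% and 2.10% of all genes. They were led by GDF15, a secreted stress hormone, at 0.39 and 0.42 RPKM in UT and 10.3 and 6.17 in Ni-E (4.28 ± 0.38, adjusted P value 3.67e-26). NUPR1, a small stress-induced nuclear protein, rose by 2.05 ± 0.55 (0.00387), and its Ni-E libraries, at 2.02 and 5.02 RPKM, were far apart. DDIT4, an inhibitor of mTORC1, rose by 1.80 ± 0.18 (1.03e-20). In Ni-W 3 rose (EIF2AK1, DDIT4 and GDF15) and 9 fell, beside 11.1% and 4.95% of all genes, with the largest decreases in ALDH1L2, a mitochondrial folate enzyme (-1.53 ± 0.21, 1.54e-11), the glycine transporter SLC6A9 (-1.42 ± 0.19, 1.82e-12) and the proline enzyme PYCR1 (-0.98 ± 0.11, 2.50e-16). In HCl3 3 rose and 9 fell as well, beside 11.4% and 3.84%. The 3 that rose were EIF2AK1, GDF15 (2.54 ± 0.44, 9.95e-08) and DDIT4 (1.42 ± 0.17, 2.10e-15), and ALDH1L2 was lower (-1.21 ± 0.20, 2.75e-08). GDF15 was at 1.83 and 1.48 RPKM in Ni-W and 2.53 and 2.4 in HCl3.

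Of 41 further ER genes, 1 rose and 0 fell in Ni-E, a share no higher than the 3.84% and 2.10% of all genes, and the one was the oxidase ERO1LB (0.59 ± 0.14, adjusted P value 0.000951). In Ni-W 2 rose, among them the prolyl isomerase FKBP11 (1.21 ± 0.30, 0.000349), and 4 fell, among them the membrane-bound factor CREB3 (-0.83 ± 0.12, 3.64e-11) and DDRGK1 of the UFM1 pathway (-0.66 ± 0.11, 9.55e-08), beside 11.1% and 4.95% of all genes. In HCl3 0 were called by DESeq2 or edgeR, beside 11.4% and 3.84% of all genes by DESeq2 and 2894 genes by edgeR. Of these ER genes, 17 had an unadjusted P value under 0.05, of which 0 reached 1.5-fold. Between Ni-W and Ni-E the counts were 1 higher and 22 lower of 38 stress response genes, and 5 higher and 3 lower of 41 ER genes, beside 12.0% and 9.04% of all genes, which is near the shares of the ER genes. Among called genes whose normalized counts averaged 50 or more, the largest changes were in NUPR1 (-3.37 ± 0.55, 1.28e-08), GDF15 (-2.31 ± 0.29, 8.03e-14) and ALDH1L2 (-2.15 ± 0.20, 3.16e-25) of the former, and FKBP11 (1.91 ± 0.32, 3.39e-08), CREB3 (-0.94 ± 0.11, 1.38e-16) and the ubiquitin-like modifier UFM1 (0.82 ± 0.11, 2.07e-12) of the latter. Between HCl3 and Ni-W 1 stress response gene was called, the glycoprotein hormone STC2, higher by 0.76 ± 0.08 (3.64e-18), and 2 ER genes, FKBP11 (-0.86 ± 0.28, 0.0152) and DERL3, which was higher. The normalized counts of DERL3 averaged under 50. Of all genes tested, 3.18% were higher and 1.72% lower in HCl3.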

How the data were processed

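STAR 2.4 was the authors' aligner (genome hg19). They dropped multiply mapped reads and deposited a count and an RPKM per RefSeq gene and library, without pooling. The deposited counts (8 libraries) were fitted in R 4.3.3 with DESeq2 1.42.0, 4 libraries per comparison, over all genes. A call required an adjusted P value under 0.05 and a change of at least 1.5-fold. With 2 libraries per group, an exact permutation test cannot reach 0.05, so P values rest on the spread DESeq2 estimates across genes. The study's methods call the libraries biological replicates. The deposited RPKM values describe levels and were not tested. On simulated data for Ni-E against UT (25411 genes), DESeq2 recovered 189 of 200 planted changes with 2 false calls. The planted changes were at least 2-fold, in well-counted genes given the same spread. Recovery of smaller changes was not assessed. Alternatives included edgeR 4.0.16, TMM, a mean count of at least 10, the replicate block, and removal of GC and length trends. Intervals of 95% are 1.96 SE. Neighbourhoods span 10 Mb.

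Members, lists, roles and motifs were chosen with earlier results of these data known. Named were members called in a comparison, with ATF4, DDIT3, HSPA5 and XBP1 throughout. Of the further lists, up to 3 called genes per comparison were named, those with the largest change and a mean normalized count of at least 50. DERL3, which averaged under 50 and was the 1 further ER gene higher in HCl3 than in Ni-W, was chosen after its values were seen. The same holds for the members named under a threshold.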

Additional observations from a re-analysis of the deposited data

How the results depend on the processing

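The replicate number comes from a suffix in the sample titles, so libraries with one number share only that. Deviations of same-numbered libraries correlated between -0.14 and 0.189 over the comparisons (13856 genes). The replicate block changed no call of the 40 genes, which stayed at 11 and 0 (ATF4 arm and ER arm) in Ni-E, at 6 and 1 in Ni-W, at 6 and 0 in HCl3, at 15 and 4 between Ni-W and Ni-E, and 0 and 0 between HCl3 and Ni-W. Under it DDIT3 in HCl3, not called in either fit, had an adjusted P value of 0.0732. Among all genes the block moved the calls from 840 to 491 in Ni-E, from 2491 to 2138 in Ni-W and from 2349 to 1779 in HCl3. They went from 3283 to 2748 between Ni-W and Ni-E and from 716 to 466 between HCl3 and Ni-W. The crossed pairing of HCl3 with UT, added after the data were seen, gave 6 and 0 calls in the arms and 1883 among all genes.

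TMM size factors, edgeR, a mean count of at least 10 and a single fit of all 8 libraries changed no call of the 40 genes. Without the fold threshold, calls of the ATF4 arm became 14 in Ni-W, 14 in HCl3 and 3 between HCl3 and Ni-W, and those of the ER arm 3 in Ni-E, 7 in Ni-W, 4 in HCl3, 11 between Ni-W and Ni-E and 6 between HCl3 and Ni-W. Calls among all genes then became 1689 in Ni-E, 4941 (from 2491) in Ni-W, 4979 (from 2349) in HCl3, 6297 (from 3283) between Ni-W and Ni-E and 2496 between HCl3 and Ni-W. With GC and length trends removed, with or without the block, 2 ER genes were called between Ni-W and Ni-E instead of 4. Calls among all genes in that comparison went from 3283 to 2911, and to 2341 with the block. With the block 401 genes in all were called in Ni-E and 446 between HCl3 and Ni-W. Under this removal SHMT2 was called in HCl3 (-0.64) and AARS in Ni-W (-0.60), and ATF3 (-0.55) and SLC3A2 (-0.46) were no longer called between Ni-W and Ni-E. The cause of these changes was not tested.

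Leaving out 1 library, where the lone library is assumed to vary like the other group, kept 1 to 2 ER calls in Ni-W, 6 to 8 calls of the ATF4 arm in Ni-W, 6 to 7 in HCl3, 10 to 11 in Ni-E and 14 to 15 between Ni-W and Ni-E. Over all genes the calls then ran from 354 to 622 in Ni-E, from 1523 to 2197 in Ni-W, from 1339 to 2117 in HCl3 and from 329 to 530 between HCl3 and Ni-W. SHMT2 was called lower in Ni-W without UT replicate 2 (-0.60) or Ni-W replicate 1 (-0.61), AARS without the latter (-0.62), and HERPUD1 between Ni-W and Ni-E without Ni-E replicate 2 (-0.61). Differences that were not called changed sign in a few cases. HSPA5 in Ni-E became 0.08 with GC and length trends removed, with or without the block, and ran from -0.04 to 0.01 as libraries were left out. Between HCl3 and Ni-W, XBP1 became 0.07 under the same removal and ran from -0.05 to 0.04, and DDIT3 ran from -0.16 to 0.06. No member had fewer than 135 reads in a library, and the precision of every call is limited by 2 libraries per group.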
